A study of Mus musculus with 3 samples.

Results

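The cells described here are alveolar macrophages of mouse lung that carry RNA of Plet1, a glycolipid-anchored surface protein, together with Abcg1, a transporter that moves cholesterol out of the cell. They were chosen by raw UMIs (molecular identifiers, where 1 UMI stands for 1 RNA molecule caught). Barcodes under 500 UMIs or under 200 genes, or with over 20% of UMIs from mitochondrial genes, were dropped, and a kept barcode was a member if it held at least 2 UMIs of Plet1, at least 2 of Abcg1, at most 1 of Cd3d, Cd3e and Cd3g together and at most 1 of Cd79a. Of 30973 kept barcodes in 3 libraries, 5203 were members.

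Lung cells of mice aged 3 months were captured with a 3′ droplet kit, in 1 library each for the treatments named Control, Model and PD00. By the title of the series, immune cells were induced with OVA (ovalbumin, an egg protein used to provoke allergic airway disease), and PD00 is a peptidomimetic. All 3 libraries carry the label of healthy tissue, and the labels give neither a strain, a dose, a duration nor the number of animals in a library, nor whether the PD00 library also received ovalbumin. With 1 library per treatment no test was possible, so every difference below is a difference between 2 libraries without a replicate check, and every 95% interval covers counting error only.

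Alveolar macrophages live on the air side of the lung, where they clear surfactant lipid and inhaled particles. Their identity depends on the growth factor GM-CSF and on the lipid-sensing receptor PPARγ, and cholesterol efflux through Abcg1 is part of how they dispose of surfactant lipid. Interleukin 4 and interleukin 13 act through the factor STAT6 and induce a set of genes called alternative activation, among them the chitinase-like protein Chil3, the resistin-like protein Retnla and arginase 1.

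The members numbered 3160 in Control, 743 in Model and 1300 in PD00. They made up 32.3% (95% Clopper-Pearson interval 31.4 to 33.2) of the 9789 kept barcodes of Control, 6.44% (5.999 to 6.903) of the 11537 of Model and 13.5% (12.8 to 14.2) of the 9647 of PD00. The share was thus 5.01-fold lower (4.63 to 5.44) in Model than in Control, 2.09-fold higher (1.91 to 2.29) in PD00 than in Model, and 2.40-fold lower (2.24 to 2.56) in PD00 than in Control. Among kept barcodes with a UMI of Ptprc, the gene of CD45, the shares were 38.1%, 7.96% and 16.4% in the same order. Because the rule reads Plet1 and Abcg1, whose levels differed between libraries, these shares are a description.

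The members were large cells and held 57.3%, 17.5% and 31.3% of all UMIs of kept barcodes in Control, Model and PD00. Their median depth was 14874, 18420 and 18211.5 UMIs, against 3603, 3743 and 3913 in the other kept barcodes. Their median mitochondrial share was 5.27%, 8.30% and 7.86%. The limit on T and B cell genes removed 4.42% of barcodes with both macrophage genes in Control, 18.6% in Model and 9.66% in PD00. A Scrublet doublet score above 0.2 was found in 138, 2 and 25 members. The libraries shared 29 to 42 kept barcodes pair by pair, and at most 2 member barcodes.

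The share moved with how the rule was set, and its order did not. Requiring a UMI of Ear1 or Marco as well gave a Model to Control ratio of 0.133 and a PD00 to Model ratio of 2.74. Applying the rule after every barcode was thinned to 2000 UMIs gave 0.0587 and 4.39. With no threshold on Abcg1, an alternative chosen after seeing the data, the ratios were 0.254 and 1.66. In each of the 13 rules plotted, the Model share was below the Control share and the PD00 share above the Model share.

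**Figure D1:**
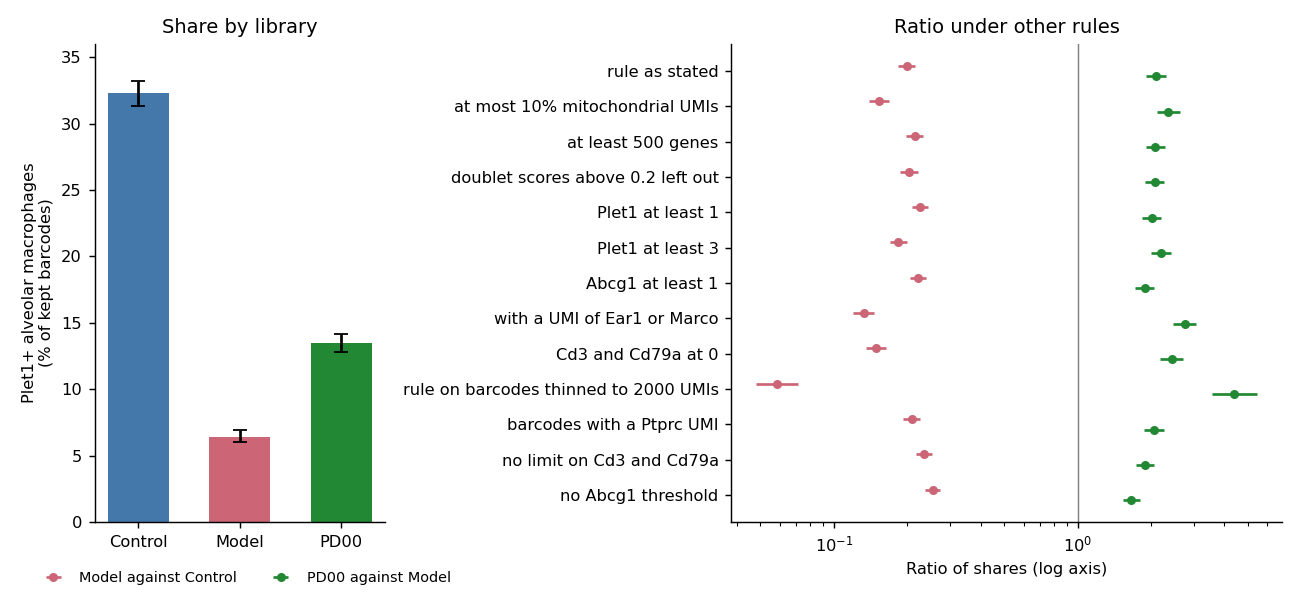
Left, members as a percentage of kept barcodes in each library, bars with exact 95% intervals of counting error; right, the ratio of shares on a log axis under the stated rule and 12 others, with Model against Control in red and PD00 against Model in green. The share was 32.3% in Control, 6.44% in Model and 13.5% in PD00, and no ratio crossed 1.

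Plet1 (ENSMUSG00000032068, chromosome 9, 50494525 to 50505482, plus strand, GRCm38) chose the members, so its level is given without a test. Members held a median of 29 UMIs of it in Control, 11 in Model and 15 in PD00. As summed UMI counts scaled to a common total of 1000000 (CPM), the level was 2106 in Control, 783 in Model and 929 in PD00. Abcg1 (ENSMUSG00000024030, chromosome 17, 31057675 to 31117988, plus strand), the other choosing gene, stood at 1288, 595 and 961 CPM. Members held 93.4%, 68.8% and 85.7% of all Plet1 UMIs of their libraries. Lymphocytes of the same library, barcodes with at least 2 UMIs of Cd3d, Cd3e and Cd3g together or of Cd79a that did not reach both macrophage thresholds, serve throughout as the level in cells that should lack macrophage RNA, a reference chosen after seeing the data. They held 48.0, 15.9 and 14.8 CPM of Plet1.

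Cells at the threshold showed what lay on either side of it. Barcodes with exactly 2 Plet1 UMIs numbered 25, 63 and 50, and those with exactly 1, which were left out, numbered 61, 117 and 144. In Model, the complement gene C1qa, a mark of interstitial macrophages, stood at 126 CPM just inside and 516 CPM just outside, and Ear1 at 80.6 and 24.8 CPM. In PD00, C1qa stood at 57.6 CPM inside and 345 CPM outside. The step was smaller in Control, where C1qa stood at 252 CPM inside and 421 CPM outside.

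Ear1 (ENSMUSG00000072601, chromosome 14, 43818765 to 43875517, minus strand) codes for a ribonuclease made by alveolar macrophages and was not used to choose the members. Its level was 735 CPM in Control, 188 in Model and 442 in PD00, so it was 3.91-fold lower (3.76 to 4.07) in Model than in Control and 2.35-fold higher (2.25 to 2.45) in PD00 than in Model. Ear1, its relatives Ear2 and Rnase2a, and Chil3 with Chil4, are near copies of each other, and how the authors' counting split reads between them is not known. Marco (ENSMUSG00000026390, chromosome 1, 120474538 to 120505024, minus strand), a scavenger receptor given as a marker of these cells, was close to absent outside Control. It stood at 30.5 CPM in Control, 1.83 in Model and 0.963 in PD00, which is 16.7-fold lower (11.3 to 25.6) in Model, and after thinning to 2000 UMIs 3.25% of Control members and 0.135% of Model members held a UMI of it. Marco therefore did not mark the members of the Model and PD00 libraries.

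The other markers fixed for alveolar macrophages were present in all 3 libraries. Siglecf, a sialic acid receptor, stood at 153, 72.7 and 97.9 CPM, Krt79, a keratin, at 232, 129 and 112 CPM, and the mannose receptor Mrc1 at 1063, 895 and 849 CPM; in Model lymphocytes they stood at 3.55, 2.87 and 73.5 CPM. Itgax, the integrin CD11c, was higher outside Control, at 341, 707 and 667 CPM, and so was Ear2, at 1249, 3058 and 2627 CPM. Mrc1 and Itgax were not particular to members. In non-members with at least 3 UMIs of C1qa and of C1qb and at most 1 of Gpnmb, Mrc1 stood at 1266, 976 and 987 CPM. In Model non-members with at least 2 UMIs of Gpnmb and of Trem2, Itgax stood at 892 CPM. Siglecf and Krt79 were lower in both groups than in members. Of the 30 alveolar macrophage identity genes, which include Plet1 and Abcg1, 15 were at least 2-fold lower and 5 at least 2-fold higher in Model than in Control. Among the 11929 genes measured, meaning that both sums together held 50 UMIs or more, 11.7% were at least 2-fold lower, 7.2% higher and 18.9% either. The median log2 ratio of the list was -0.96, beside -0.23 over all genes.

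That shift of all genes has a measured counterpart. Gm42418, an unnamed gene model that overlaps ribosomal RNA, took 5.37% of member UMIs in Control and 9.99% in Model, and Chil3 took 8.14% in Model. With both left out of the totals the median of all genes was -0.02 in place of -0.23, and for PD00 against Model it was 0.04 in place of 0.06. Ratios below are given on plain CPM, and those within about 1.2-fold of 1 between Model and Control lie inside the shift.

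The Model library differed from Control first in alternative activation. Of 24 measured genes of that list, 16 were at least 2-fold higher and 0 lower, with a median log2 ratio of 3.11. Chil3 (ENSMUSG00000040809, chromosome 3, 106147554 to 106167564, minus strand) stood at 1815 CPM in Control, 81393 in Model and 83551 in PD00. It was 44.8-fold higher (44.5 to 45.2) in Model than in Control and 1.03-fold higher (1.02 to 1.03) in PD00 than in Model. The difference in Chil3 extended over nearly all cells. In members thinned to 5000 UMIs the 5th percentile of its share of UMIs was 4.25% in Model and 5.1% in PD00, and the 95th percentile in Control was 0.42%.

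Arg1 (ENSMUSG00000019987, chromosome 10, 24915221 to 24927484, minus strand), arginase 1, stood at 0.506 CPM in Control, 457 in Model and 226 in PD00, and in lymphocytes at 3.70, 57.9 and 36.3 CPM. It was 904-fold higher (607 to 1412) in Model than in Control, from 24 UMIs in all Control members. Retnla (ENSMUSG00000061100, chromosome 16, 48842551 to 48844461, plus strand), resistin-like alpha, stood at 0.780, 1369 and 1184 CPM, with lymphocytes at 1.55, 657 and 338 CPM. Its ratio of Model to Control was 1756 (1274 to 2495). In Model members 2784 of their 19494 Retnla UMIs lay in 1 cell. Chil4, a close relative of Chil3, had 0 UMIs in Control, 197 CPM in Model and 26.5 in PD00, at least 3120-fold higher in Model against a floor of 3 counts over the Control members. Of its 2808 Model UMIs, 1319 lay in 1 cell.

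Other members of the list were chemokines and matrix proteins. Ccl17, which draws T cells through CCR4, stood at 0.759 CPM in Control, 313 in Model and 118 in PD00. Ccl24, an eotaxin, stood at 0.927, 351 and 145 CPM. The ratios of Model to Control were 412 (297 to 589) and 378 (281 to 521). Fibronectin (Fn1) was already present in Control at 195 CPM and reached 2646 and 2451 CPM, and the growth factor Igf1 went from 4.24 to 262 and 230 CPM.

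The receptor and signalling genes of the same axis showed little of this. Il4ra stood at 53.2, 53.2 and 42.0 CPM beside 163, 105 and 111 CPM in lymphocytes, Il13ra1 at 33.3, 47.1 and 33.0 CPM beside 3.25, 5.52 and 3.98, and Stat6 at 81.3, 59.4 and 61.7 CPM. Of the 7 genes of the interleukin 4 and interleukin 13 receptor list, 0 were past 2-fold in Model against Control, and 0 of 7 in PD00 against Model. Beside these, 18.9% and 2.64% of all genes measured were past 2-fold. With 7 genes, a count of 0 cannot be told apart from those shares.

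Counting fewer UMIs per cell did not remove the pattern. After thinning to 2000 UMIs, which left out 18, 1 and 1 members, Arg1 was detected in 0.127%, 34.9% and 24.1% of members of Control, Model and PD00, and in 0.429%, 4.79% and 2.72% of lymphocytes, whose median depths were 3966, 4690 and 4596 UMIs. Fbp1 was detected in 0 of 3142 Control members, which allows a share of up to 0.0955%, in 58.2% of Model members and in 39.6% of PD00 members, against 3.23% and 2.23% of lymphocytes of the last 2 libraries. Retnla was detected in 0.0637%, 53.9% and 46.0% of members, but also in 35.7% of Model and 31.2% of PD00 lymphocytes.

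By the fixed rule for naming genes, which asked for a level at least 3 times that of lymphocytes, 8 genes led among those higher in Model. The largest was Rnase2a, a ribonuclease related to the eosinophil-derived neurotoxin, at 0.190 CPM in Control, 1283 in Model and 590 in PD00, a ratio of 6764 (3563 to 14796). Fbp1 (ENSMUSG00000069805, chromosome 13, 62864753 to 62888282, minus strand), fructose bisphosphatase of gluconeogenesis, stood at 0.148, 675 and 328 CPM. Mmp12, macrophage elastase, stood at 49.2, 10101 and 7049 CPM, 205-fold higher (197 to 214) in Model. All 3 were low in Control, highest in Model and in between in PD00.

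Ocstamp, which takes part in the fusion of macrophage-lineage cells, stood at 0.105, 47.8 and 22.2 CPM. Ddx4, an RNA helicase best known from germ cells, had 0 UMIs in Control, 21.8 CPM in Model and 4.78 in PD00, at least 346-fold higher in Model. Arg1, Ccl17 and Ccl24 complete the 8.

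**Figure D2:**
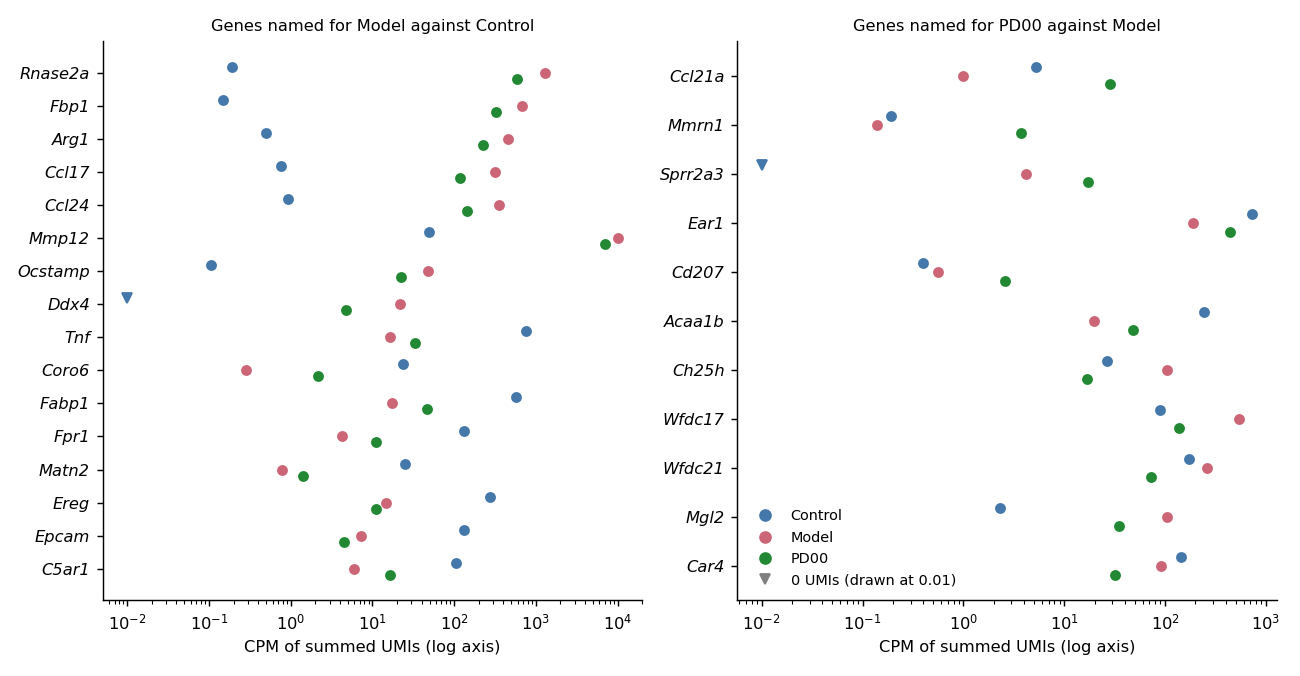
CPM of summed UMIs in members of each library, log axis, for the genes chosen by the naming rule (left, Model against Control; right, further genes of PD00 against Model), 1 point per library and triangles for 0 UMIs drawn at 0.01. In the left panel Arg1 goes from 0.506 CPM in Control to 457 in Model and 226 in PD00, and Tnf from 764 to 16.6 and 33.3.

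Inflammatory genes went the other way. Of 25 measured cytokine and chemokine genes, 15 were at least 2-fold lower and 4 at least 2-fold higher in Model than in Control, with a median log2 ratio of -1.40. Tnf (ENSMUSG00000024401, chromosome 17, 35199381 to 35202007, minus strand), tumour necrosis factor, stood at 764 CPM in Control, 16.6 in Model and 33.3 in PD00. It was 45.9-fold lower (40.4 to 52.4) in Model than in Control and 2.0-fold higher (1.73 to 2.32) in PD00 than in Model. After thinning to 2000 UMIs, Tnf was detected in 59.3% of Control members, 2.83% of Model members and 5.62% of PD00 members. In lymphocytes it was detected in 4.88%, 2.76% and 2.93%, so the Model share of members was near that of lymphocytes. Whether the lymphocyte share is a background level for Tnf was not tested.

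Other cytokines of the interleukin 1 family were lower as well. Il18 stood at 471, 31.8 and 69.1 CPM, 14.8-fold lower (13.5 to 16.3) in Model. Il1a stood at 1041, 149 and 216 CPM, and Il1b at 1033, 480 and 759 CPM. All 3 genes lay higher in PD00 than in Model, by 2.17-fold (1.96 to 2.41), 1.45-fold (1.38 to 1.52) and 1.58-fold (1.54 to 1.63).

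Among the neutrophil-drawing chemokines, Cxcl2 was the most abundant at 12648 CPM in Control, 2883 in Model and 3777 in PD00, 4.39-fold lower (4.34 to 4.43) in Model. Cxcl1 stood at 1774, 665 and 810 CPM and Cxcl3 at 344, 106 and 103 CPM. Ccl3, a chemokine for monocytes and T cells, stood at 523, 97.1 and 60.3 CPM and so was lowest in PD00. The 4 members higher in Model were Ccl9 (275 to 1669 CPM), Cxcl16 (20.4 to 92.8), Il10 (1.48 to 4.07) and Nos2 (0.126 to 4.57). Il10 was below its lymphocyte level of 27.8 CPM in Model.

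Receptors that sense microbes were mostly lower in Model. Of 17 measured pattern recognition receptor genes, 9 were at least 2-fold lower and 2 higher in Model, with a median log2 ratio of -1.06. Among all genes, 11.7% were lower and 7.2% higher. The formyl peptide receptor Fpr1 stood at 134, 4.21 and 11.2 CPM, Tlr2 at 1005, 123 and 169 CPM, and the inflammasome sensor Nlrp3 at 700, 134 and 209 CPM. C5ar1, the receptor of complement C5a, stood at 106, 5.97 and 16.5 CPM, while of 15 complement genes 7 were at least 2-fold higher and 2 lower, with C3ar1, the receptor of C3a, at 1.12, 29.1 and 27.1 CPM. The Model levels of Fpr1 and C5ar1 lay below those of lymphocytes, which were 4.41 and 9.75 CPM.

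The remaining genes of the naming rule that were lower in Model were of varied function. Fabp1 (ENSMUSG00000054422, chromosome 6, 71199827 to 71205023, plus strand), a fatty acid binding protein, stood at 565, 17.2 and 46.8 CPM, 32.8-fold lower (28.9 to 37.4) in Model. The epidermal growth factor receptor ligand Ereg stood at 272, 14.8 and 11.1 CPM, and the adhesion molecule Epcam at 131, 7.16 and 4.54 CPM. Coro6, an actin-binding coronin, stood at 23.6, 0.281 and 2.17 CPM, and Matn2, a matrilin of the extracellular matrix, at 24.9, 0.773 and 1.40 CPM. Together with Tnf, Fpr1 and C5ar1 these make up the 8 genes; Epcam stood at 12.7, 22.7 and 23.5 CPM in lymphocytes, above its members' levels in Model and PD00.

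Promoters of genes from the alternative activation and the cytokine lists were searched for 5 short motifs on both strands. The stretch searched was the 250 bases before each gene's start in RefSeq sequence of GRCm38.p6. The STAT motif TTCNNNNGAA, the form that STAT6 is known to favour, was present in 1923 of 32851 promoters (5.85%) and in 5 of the 18 matched alternative activation genes, of which Retnla, Ccl17 and Pdcd1lg2 (a ligand of the receptor PD-1, at 3.58, 58.9 and 27.9 CPM) were at least 2-fold higher in Model. The other 2 were Cd200r4, at 99.2, 80.1 and 76.8 CPM, and Clec7a, which the matrices did not list. The form with 1 spacer base fewer, TTCNNNGAA, was counted separately and was in 7.02% of promoters and in 4 of the 18 (Ccl17, Chil3, Chil4 and Plcb1). The 250 bases before the start of the 3 genes are shown 5′ to 3′ with TTCNNNNGAA in capitals, because these genes have both such a match and a 2-fold difference. They lie at chr16:48842359-48842608, chr8:94810203-94810452 and chr19:29410669-29410918, all on the plus strand, and the match starts 145, 154 and 82 bases before RefSeq's start of the gene. For Retnla that start lies downstream of the annotated gene start given above, so part of the stretch is inside the annotated gene.
Retnla: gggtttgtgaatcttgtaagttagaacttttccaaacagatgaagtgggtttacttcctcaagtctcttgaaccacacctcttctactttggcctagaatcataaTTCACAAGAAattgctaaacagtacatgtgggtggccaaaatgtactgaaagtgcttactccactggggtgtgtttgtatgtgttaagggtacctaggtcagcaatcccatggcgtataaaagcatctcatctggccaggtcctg
Ccl17: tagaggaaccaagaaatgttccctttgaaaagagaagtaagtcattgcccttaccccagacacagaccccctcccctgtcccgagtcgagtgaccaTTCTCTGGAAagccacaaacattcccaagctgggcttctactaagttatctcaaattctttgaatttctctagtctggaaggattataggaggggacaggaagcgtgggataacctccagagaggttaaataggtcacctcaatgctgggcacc
Pdcd1lg2: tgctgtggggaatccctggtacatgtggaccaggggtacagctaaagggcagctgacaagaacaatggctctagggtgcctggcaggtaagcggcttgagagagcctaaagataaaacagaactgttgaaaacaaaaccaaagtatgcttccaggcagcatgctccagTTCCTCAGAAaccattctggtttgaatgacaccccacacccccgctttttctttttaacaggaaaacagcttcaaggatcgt

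The NF-κB motif GGGANTTTCC was present in 117 of 32851 promoters (0.356%) and in 5 of the 17 matched cytokine genes, namely Cxcl1, Cxcl2, Cxcl3, Il6 and Nfkbia. The first 3 were lower in Model by 2.67-fold (2.61 to 2.73), 4.39-fold (4.34 to 4.43) and 3.24-fold (3.07 to 3.42), and Il6 and Nfkbia, at 1.91-fold and 1.60-fold lower, did not reach 2-fold. The 250 bases before the start of the 3 chemokine genes are shown with the motif in capitals, since these neighbours on chromosome 5 were all lower in Model. They lie at chr5:90890995-90891244, chr5:90903649-90903898 and chr5:90785851-90786100, plus strand, with the match starting 71, 97 and 73 bases before RefSeq's start of the gene.
Cxcl1: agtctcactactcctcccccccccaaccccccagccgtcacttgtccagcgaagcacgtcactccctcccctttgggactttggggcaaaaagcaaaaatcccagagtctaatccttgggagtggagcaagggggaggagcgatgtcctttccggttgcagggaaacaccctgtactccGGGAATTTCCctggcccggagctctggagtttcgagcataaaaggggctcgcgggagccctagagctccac
Cxcl2: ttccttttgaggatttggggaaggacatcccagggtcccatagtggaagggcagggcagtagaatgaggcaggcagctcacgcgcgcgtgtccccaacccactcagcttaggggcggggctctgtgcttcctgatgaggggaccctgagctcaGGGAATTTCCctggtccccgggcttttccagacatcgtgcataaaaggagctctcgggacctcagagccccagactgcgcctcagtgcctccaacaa
Cxcl3: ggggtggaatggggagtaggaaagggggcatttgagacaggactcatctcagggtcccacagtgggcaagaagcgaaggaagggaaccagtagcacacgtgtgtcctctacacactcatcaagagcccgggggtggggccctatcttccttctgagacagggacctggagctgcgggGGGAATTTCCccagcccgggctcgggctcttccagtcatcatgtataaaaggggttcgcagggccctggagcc
A match is a description of letters and not a bound site. The sterol regulatory element TCACNCCAC was in 1.05% of promoters and in 1 of 15 matched cholesterol synthesis genes (Hmgcs1), and AGGTCANAGG, a DR1 element of PPARγ, was in 0.56% of promoters and in 0 genes of the 3 lists.

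The regulators of alveolar macrophage identity had a median log2 ratio of -0.70 in Model against Control, beside -0.23 for all genes. Of 20 genes, 3 were at least 2-fold lower and 2 at least 2-fold higher. Those counts were near the shares over all genes measured, 11.7% lower and 7.2% higher. The 3 lower genes were the following. Pparg, the gene of PPARγ, stood at 92.6 CPM in Control, 39.1 in Model and 51.7 in PD00. Bhlhe41, which represses other macrophage programmes in these cells, stood at 160, 62.7 and 59.9 CPM, and Csf2rb2, a receptor chain of the GM-CSF family, at 210, 92.5 and 102 CPM.

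Lipid handling genes were split. The fatty acid transporter Cd36 stood at 134, 486 and 587 CPM, 3.62-fold higher (3.50 to 3.75) in Model, while the lipid droplet gene Cidec stood at 168, 26.3 and 49.2 CPM. Of 21 genes for lipid uptake and storage, 2 were at least 2-fold higher and 5 lower in Model than in Control. Over all genes measured, 7.2% were higher and 11.7% lower, so the count of 2 higher lay near that share. Among lysosomal genes, 5 of 27 were at least 2-fold higher and 0 lower, led by Cd63 (80.8, 330 and 314 CPM) and the saposin precursor Psap (2829, 9981 and 9570 CPM). Of 24 glutathione and antioxidant genes, 0 were at least 2-fold higher and 7 lower, among them Gstm1 (181, 44.0 and 73.2 CPM) and Txnrd1 (503, 167 and 180 CPM).

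Energy metabolism differed less. None of 20 fatty acid oxidation genes and none of 39 nuclear genes of the respiratory chain was past 2-fold in either direction, with medians of -0.10 and 0.26 beside -0.23 for all genes. The share of all genes past 2-fold in either direction was 18.9%. The 13 mitochondrially encoded genes had a median of 0.62, with mt-Nd3 past 2-fold at 554, 1161 and 1230 CPM. Of 22 TCA cycle genes, Mdh2, a malate dehydrogenase, was past 2-fold at 112, 256 and 186 CPM. Of 18 glycolysis genes, Pgk1 (77.4, 231 and 200 CPM) and Hk3 (7.92, 25 and 13.7 CPM) were.

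**Figure D3:**
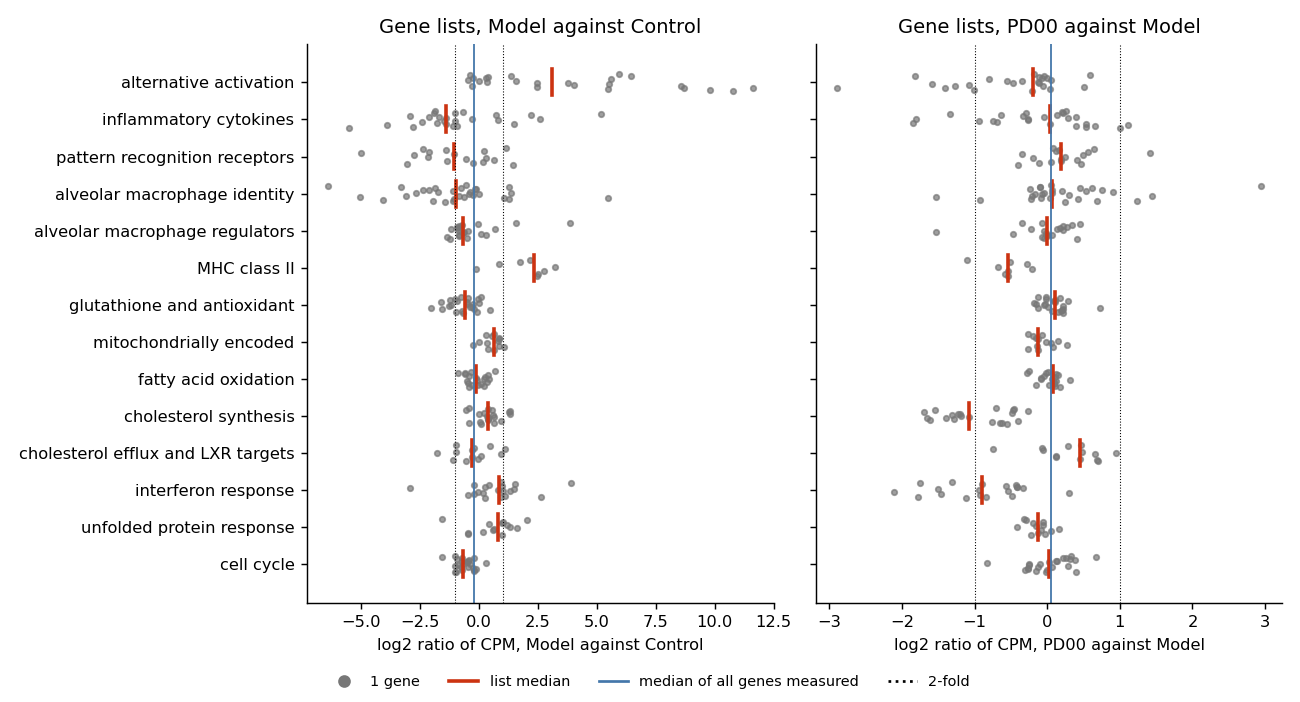
The log2 ratio of CPM per gene (grey points) in 14 gene lists, Model against Control on the left and PD00 against Model on the right, with the list median in red, the median of all genes measured in blue and 2-fold as dotted lines. Alternative activation has a median of 3.11 and inflammatory cytokines of -1.40 on the left, and cholesterol synthesis has a median of -1.08 on the right.

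Antigen presentation genes were higher in Model, but most lay near the lymphocyte level. H2-Aa stood at 214, 1196 and 819 CPM in members and at 1306, 1153 and 1117 CPM in lymphocytes, which include B cells that make it. H2-DMb1, a chain of the peptide-loading molecule, was the exception, at 39.8, 367 and 230 CPM against 42.3, 56.8 and 49.7 CPM in lymphocytes. Of 8 measured class II genes, 6 were at least 2-fold higher in Model. Of 14 genes of the unfolded protein response, 5 were higher and 1 lower, and 6 of the same 14 were higher in lymphocytes. The shares of all genes were 7.2% higher and 11.7% lower in members, and 6.38% higher in lymphocytes.

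Markers of other cells were measured in the same members, and their part in these results was not tested. The 12 interstitial macrophage markers summed to 63.9 CPM in Control, 443 in Model and 248 in PD00, against 212, 471 and 364 CPM in lymphocytes. The 12 neutrophil markers summed to 374, 763 and 305 CPM, against 2451, 6612 and 3306 in lymphocytes. Defining genes of these types stood at low levels, with Cx3cr1 at 1.81, 2.11 and 1.81 CPM and Cxcr2 at 3.67, 4.71 and 2.09 CPM. No marker of either list was at 0 in any library.

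The 10 B and plasma cell markers summed to 39.2, 4951 and 2015 CPM, mostly Igkc and Ighg1, and lay far below the lymphocytes. Thinned to 2000 UMIs, Ighg1 was detected in 79.4% of Model members and 75.9% of Model lymphocytes, which include B and plasma cells and so are no background level for it. The 10 airway epithelial markers summed to 1655, 1776 and 550 CPM, with Muc5ac, Clca1, Bpifb1 and Reg3g at 0 in Control, and a single Model member held 11205 of 19651 Scgb1a1 UMIs. The 6 erythroid markers summed to 595, 72.6 and 46.3 CPM.

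Arg1, Fbp1 and Mmp12 were also high in Model members without a C1qa UMI. After thinning to 5000 UMIs, 573 Model members had no C1qa UMI and held 366 CPM of Arg1, 703 of Fbp1 and 10085 of Mmp12, and the 135 with C1qa held 394, 563 and 8339 CPM. Retnla was high in both sets too, at 1124 CPM without and 1956 CPM with C1qa, against 0.780 CPM in Control members.

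Compared with Model, PD00 members differed in far fewer genes. Of 11118 genes measured in this pair of libraries, 78 (0.702%) were at least 2-fold higher and 215 (1.93%) at least 2-fold lower, 2.64% in either direction. The balance of higher and lower calls depended on the rule. With Cd3 genes and Cd79a at 0 the counts were 144 higher and 127 lower, and with the whole rule applied to thinned barcodes they were 151 and 120. Both comparisons use the Model library, so its levels enter both. Of the 24 alternative activation genes, 0 were at least 2-fold higher and 7 lower in PD00 than in Model, with a median log2 ratio of -0.20 beside 0.06 for all genes.

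The 7 were Arg1, Chil4, Ccl17, Ccl24, Pdcd1lg2, Mgl2 and Alox15. Mgl2, a sugar-binding lectin of alternatively activated cells, stood at 105 CPM in Model and 34.8 in PD00, 3.02-fold lower (2.77 to 3.28). Ccl17 was 2.64-fold lower (2.52 to 2.77), Ccl24 2.42-fold lower (2.32 to 2.53) and Arg1 2.02-fold lower (1.95 to 2.09). Chil3 and Retnla, the 2 most abundant of the list, were within 1.2-fold, and Fn1 and Igf1 were too. Genes of the list were also lower outside the members. In lymphocytes 4 of 24 were at least 2-fold lower in PD00 and 1 higher, with a median of -0.44. In non-members with at least 2 UMIs of Gpnmb and of Trem2, 3 of 24 were lower and 0 higher (median -0.18). In those with at least 3 UMIs of C1qa and of C1qb and at most 1 of Gpnmb, 3 of 23 were lower and 0 higher (median -0.04). Of all genes, 1.69%, 1.06% and 1.31% were lower in these groups.

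Outside the list, the naming rule gave Ch25h, Wfdc17, Wfdc21, Ddx4 and Car4 as lower in PD00. Ch25h (ENSMUSG00000050370, chromosome 19, 34473778 to 34475164, minus strand), which makes an oxysterol from cholesterol, stood at 26.4 CPM in Control, 104 in Model and 16.7 in PD00, 6.19-fold lower (5.55 to 6.92) in PD00 than in Model. Wfdc17, a small secreted protein with a whey acidic protein domain, stood at 89.9, 543 and 137 CPM, 3.96-fold lower (3.80 to 4.12). Its relative Wfdc21 stood at 173, 261 and 72.8 CPM. For Ch25h and Wfdc21 the PD00 level was below the Control level as well.

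Car4, a membrane carbonic anhydrase of alveolar macrophages, was the identity gene at least 2-fold lower in PD00, at 144 CPM in Control, 91.9 in Model and 31.9 in PD00, 2.88-fold lower (2.63 to 3.15) in PD00. Ddx4 was 4.57-fold lower (3.69 to 5.70). Csf1, the macrophage colony-stimulating factor, stood at 12.1, 59.4 and 19.3 CPM, 3.08-fold lower (2.75 to 3.45), with lymphocytes at 17.9, 21.4 and 20 CPM.

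Among the named genes higher in PD00 than in Model, besides Ear1, Fabp1 was 2.72-fold higher (2.37 to 3.13), and Acaa1b, a thiolase of peroxisomal fatty acid oxidation, stood at 245, 19.8 and 48.2 CPM, 2.43-fold higher (2.14 to 2.78). Coro6 was 7.71-fold higher (2.84 to 29.3), from 4 UMIs in Model. All of these remained below the Control level. Of 21 genes for lipid uptake and storage 1 (Fabp1) was at least 2-fold higher and 0 lower, and 0 of 20 fatty acid oxidation genes were past 2-fold. Over all genes measured, 0.702% were higher and 1.93% lower, so counts of 0 or 1 in such short lists lie near those shares. Of the 25 cytokine genes, 2 (Tnf and Il18) were at least 2-fold higher and 3 (Ccl2, Ccl7 and Nos2) at least 2-fold lower, and of the 28 identity genes 3 were higher and 1 lower.

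Of the 8 genes the rule named as higher, 3 rested on single cells. A single PD00 member held 683 of 708 Ccl21a UMIs, a chemokine of lymphatic vessels, and a single member held 91 of 92 UMIs of Mmrn1, a lymphatic endothelial gene. A single member held 422 of 425 UMIs of Sprr2a3, an epithelial gene. Cd207, the lectin langerin, was higher from 8 UMIs in Model to 65 in PD00, of which 20 lay in 1 cell. These 4 genes describe few cells and not the members at large.

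Cholesterol synthesis genes were lower in PD00 than in Model. Of 21 genes, 11 were at least 2-fold lower in PD00 and 0 higher, with a median log2 ratio of -1.08 beside 0.06 for all genes, and all 21 had a ratio below 1. Sqle (ENSMUSG00000022351, chromosome 15, 59315077 to 59331192, plus strand), squalene epoxidase, stood at 14.4 CPM in Control, 18.9 in Model and 5.98 in PD00, 3.16-fold lower (2.58 to 3.89). Idi1, the isomerase that makes isoprenoid building blocks, stood at 35.7, 47.1 and 15.4 CPM, 3.05-fold lower (2.69 to 3.47).

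A late step of the pathway was among the lower genes. Sc5d, a sterol desaturase, stood at 8.79, 21.1 and 6.50 CPM, 3.25-fold lower (2.68 to 3.96). Cyp51, Msmo1, Nsdhl, Hsd17b7, Fdps, Fdft1 and Lss, further enzymes of the pathway, were also among the 11. The regulator Srebf2 stood at 58.7, 43.4 and 26.6 CPM.

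Several of these genes were as high in lymphocytes as in members. Sqle stood at 16.7 and 15.2 CPM in Model and PD00 lymphocytes, and Sc5d at 26.7 and 35.2 CPM. In lymphocytes 0 of 21 genes of the list were at least 2-fold lower in PD00, with a median of -0.16. In macrophages with at least 2 UMIs of Gpnmb and of Trem2, genes of lipid-laden macrophages, that were no members, 6 of 21 were lower, with a median of -0.58 (347 Model and 393 PD00 cells). In non-members with at least 3 UMIs of C1qa and of C1qb and at most 1 of Gpnmb, 0 of 19 were lower, with a median of -0.33. Whether these differences differ between cell groups was not tested.

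The count of 11 depended on the setting. With the rule applied to barcodes thinned to 2000 UMIs, 5 of 20 genes were at least 2-fold lower, and among genes at least 3 times the lymphocyte level, an alternative chosen after seeing the data, 3 of 6. Over 19 settings the count ran from 3 to 11 and the list median from -1.22 to -0.50.

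**Figure D4:**
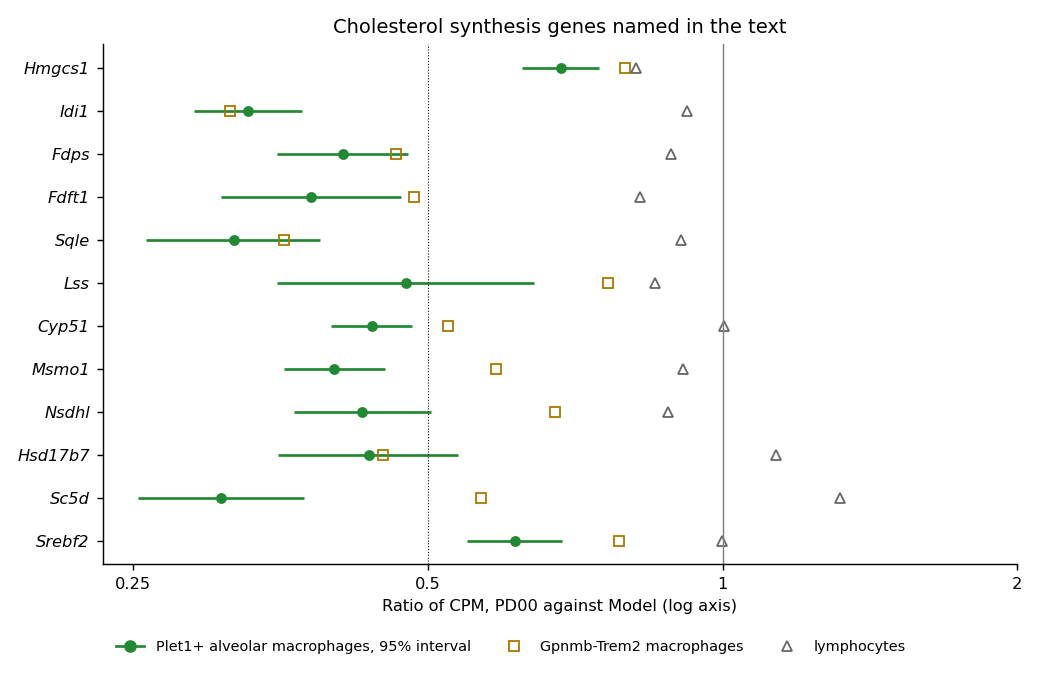
Ratio of CPM in PD00 to that in Model, log axis, for the 12 cholesterol synthesis genes named in the text, in members (green, with 95% intervals of counting error), in Gpnmb-Trem2 macrophages (squares) and in lymphocytes (triangles), with 2-fold lower as a dotted line. All 12 member ratios are below 1 and 10 are left of the dotted line, among them Sqle and Sc5d.

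Of 13 measured genes of efflux and LXR targets, a list that includes Abcg1, 0 reached 2-fold in either direction between PD00 and Model. That count lies near the share of 2.64% over all genes measured. The log2 ratios of the 13 genes ran from -0.75 to 0.94, with a median of 0.45 beside 0.06 for all genes. The list median was 0.33 in Gpnmb-Trem2 macrophages, 0.32 in the non-members chosen by C1qa and C1qb, and 0.07 in lymphocytes. All genes had medians of 0.05, 0.03 and 0.04 in these groups, so the other macrophages shared the direction. In members, single genes were as follows. Abca1, the partner of Abcg1 in cholesterol efflux, stood at 189 CPM in Control, 129 in Model and 210 in PD00, 1.62-fold higher (1.54 to 1.71) in PD00 than in Model. Mylip, a ubiquitin ligase, stood at 55.0, 16.2 and 31.2 CPM, 1.92-fold higher (1.66 to 2.24). Both are targets of the oxysterol receptor LXR. Abcg1 itself was 1.62-fold higher (1.58 to 1.66), but it chose the members.

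Interferon response genes were lower in PD00 too, with 7 of 19 at least 2-fold lower and 0 higher and a median of -0.89. Their levels were low, and Irf7, for instance, stood at 5.46, 6.18 and 2.25 CPM in members against 33.5, 24 and 13 CPM in lymphocytes. The direction was not particular to the members. In lymphocytes 5 of 22 were lower (median -0.69), and in Gpnmb-Trem2 macrophages 4 of 16 (-0.79). In the non-members chosen by C1qa and C1qb, 4 of 20 were lower (-0.66), and 0 were higher in any of these groups. In members, markers of neutrophils (8 of 12 lower), airway epithelium (9 of 9) and B and plasma cells (6 of 10) were lower as well. In Model members the neutrophil and B cell sums lay below those of lymphocytes, and the airway sum lay above, at 1776 against 1125 CPM. Their part in the difference between PD00 and Model was not tested.

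Against Control, PD00 members had 748 of 12125 genes (6.17%) at least 2-fold higher and 1159 (9.56%) at least 2-fold lower, 15.7% in either direction. Arg1 was 448-fold higher (301 to 699) in PD00 than in Control, Fbp1 2222-fold (1078 to 5528) and Mmp12 143-fold (138 to 149). Tnf was 22.9-fold lower (21.4 to 24.6), Fabp1 12.1-fold lower (11.4 to 12.8) and Marco 31.6-fold lower (21.2 to 49.5). For these 6 genes PD00 members therefore stood closer to Model than to Control on the log scale. All of them but Marco were named for their large difference between Model and Control. Ear1, at 735 CPM in Control, 188 in Model and 442 in PD00, stood closer to Control.

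Members of 1 library also differed among themselves. After thinning to 5000 UMIs, Chil3 took between 4.25% and 11.8% of UMIs between the 5th and 95th percentiles of Model members, and Mmp12 took from 0.12% to 2.25%. In PD00 the range of Mmp12 was 0.02% to 2.12%, with a median of 0.46% against 0.84% in Model. Cxcl2 took a median of 1.16% in Control, 0.24% in Model and 0.34% in PD00.

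PD00 members with Fabp1 RNA differed from the other PD00 members in further genes. Of 1281 PD00 members thinned to 5000 UMIs, 150 held a Fabp1 UMI, and these were compared with the other 1131 (a split chosen after seeing the data). Those with Fabp1 had 853 CPM of Ear1 against 416, a ratio of 2.05 (1.88 to 2.24). Car4 was 4.59-fold higher (3.47 to 6.03) and Il18 2.64-fold higher (2.13 to 3.25) in them.

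Of 5 alternative activation genes compared in this split, Retnla, Arg1, Ccl24 and Mgl2 were lower in the 150 cells. Retnla stood at 285 CPM against 1281, a ratio of 0.223 (0.194 to 0.255), and Arg1 at 74.7 against 213. Mmp12, outside that list, stood at 2556 against 7104 CPM. Chil3, the fifth, was nearly equal, at 80572 against 84498 CPM. Both sets thus carried the high Chil3 level that separated PD00 from Control.

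In the Model library, 45 of 708 thinned members held a Fabp1 UMI. Ear1 was 1.47-fold higher (1.13 to 1.89) and Retnla stood at 711 against 1321 CPM in them, but Arg1 was not lower, at 462 against 365 CPM, and the interval of the Il18 ratio spanned 1 (0.832 to 3.23). With 45 cells the Model split is coarse, and the difference between the 2 libraries' splits was not tested.

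**Figure D5:**
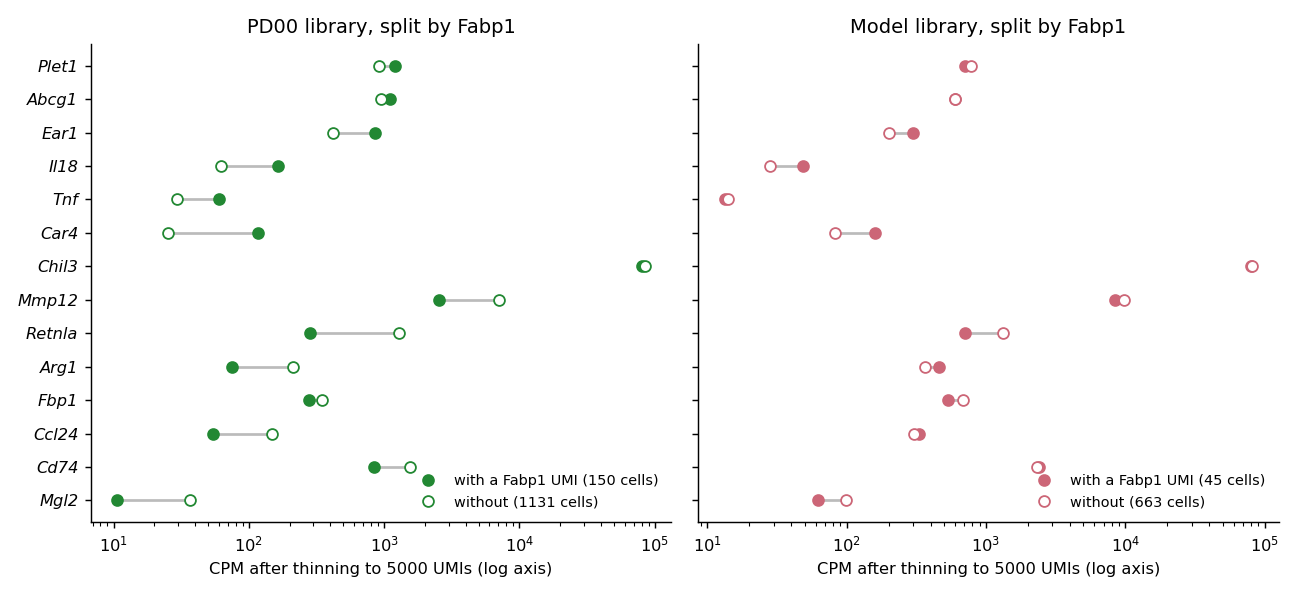
CPM after thinning each member to 5000 UMIs, log axis, in members with a Fabp1 UMI (filled) and without (open), PD00 on the left and Model on the right. In PD00, Ear1 is 853 against 416 CPM and Retnla 285 against 1281 CPM, while Chil3 is nearly equal in both libraries.

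Splitting by Arg1 gave the complementary view. In Model, the 350 thinned members with an Arg1 UMI held 485 CPM of Ccl24 against 128 in the 358 without, and 1501 against 721 CPM of Spp1, osteopontin. In PD00, the 498 members with an Arg1 UMI held 2002 against 631 CPM of Retnla and 9486 against 4717 CPM of Mmp12, but 16.1 against 64.1 CPM of Fabp1 and 306 against 569 CPM of Ear1. In both libraries the members with Arg1 were thus the lower ones in Ear1.

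Members with a Gpnmb UMI held more Cd36 and Apoe in each library. In Control, the 1113 with a Gpnmb UMI had 194 CPM of Cd36 against 82.4 in the 1964 without, 265 against 141 CPM of Apoe, and 448 against 835 CPM of Cd74, the invariant chain of class II molecules. In Model, Cd36 stood at 756 against 414 CPM and Apoe at 429 against 180 CPM. In PD00, Cd36 stood at 691 against 541 CPM and Apoe at 353 against 165 CPM.

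Compared with the Gpnmb-Trem2 macrophages of the same libraries, members differed in many of the genes compared. In Model, Ear1 stood at 188 CPM in members and 7.12 in Gpnmb-Trem2 macrophages, Car4 at 91.9 and 2.82, Krt79 at 129 and 13.5, C1qa at 77.3 and 319, and Apoe at 204 and 1726 CPM. Chil3 was abundant in both, at 81393 CPM in members and 50785 in Gpnmb-Trem2 macrophages of Model. Arg1, at 457 and 1017 CPM, and Mmp12, at 10101 and 15732 CPM, were higher in the latter. Fbp1 was 675 CPM in members and 27.5 CPM in Gpnmb-Trem2 macrophages of Model, and 328 and 22.3 CPM in PD00, so it was higher in members although the rule did not use it. Both groups were defined by their own RNA, and no test was made.

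The C1q-high macrophages shared part of the Model pattern. Of 23 alternative activation genes measured in them, 14 were at least 2-fold higher and 0 lower in Model than in Control (median 2.22), beside 8.25% of all genes higher, and of 24 cytokine genes 17 were at least 2-fold lower (median -1.57), beside 5.85% of all genes lower. In lymphocytes, 15 of 24 alternative activation genes were higher (median 1.72), among them Chil3, at 74.6 CPM in Control and 4761 in Model lymphocytes. The source of this RNA in lymphocytes was not tested. Both directions were thus also measured outside the members.

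Dividing cells, taken as members with UMIs of both Mki67 and Top2a, made up 5.63%, 6.73% and 8.54% of members of Control, Model and PD00. Thinned to 5000 UMIs the shares were 3.22% (2.62 to 3.90), 3.39% (2.18 to 5.002) and 2.73% (1.91 to 3.78), so no difference was detectable at this depth. Of 23 cell cycle genes 0 were at least 2-fold higher and 4 lower in Model than in Control, and 0 of 23 were past 2-fold between PD00 and Model. These counts lie near the shares over all genes. Those were 7.2% higher and 11.7% lower in Model than in Control, and 2.64% past 2-fold between PD00 and Model.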

How the data were processed

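Single cells of mouse lung were captured with a 3′ droplet kit, 1 library for each of 3 treatments, and the authors deposited filtered matrices of raw UMI counts for 32285 genes. Cell Ranger 3.1.0 and STAR on mm10 are named in the submitters' processing notes, while the matrices were written by cellranger 5.0.0 per the file headers. Libraries held 80288883 to 83281019 UMI counts over 9851 to 11772 barcodes.

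Member counts were summed per library and divided by their total (CPM). Ratios of 2 libraries carry exact conditional binomial 95% intervals, and shares exact Clopper-Pearson intervals. UMIs count molecules, and the intervals cover counting error only. A gene counted as higher or lower when it had at least 50 UMIs over both sums and a ratio of at least 2 or its inverse. With 1 library per group no test was run. The calculation was checked on simulated counts. Where a library had 0 UMIs, 3 counts stood in for the floor.

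Named genes were the 8 higher and 8 lower genes with the interval bound nearest to 1 that lay farthest from it, in Model against Control and in PD00 against Model, at a CPM at least 3 times that of lymphocytes where higher, without mitochondrial, ribosomal, haemoglobin, sex-specific, immunoglobulin and T cell receptor genes and unnamed models. Plet1, Abcg1, Ear1, Marco and 2 to 4 leading genes of each of 45 lists were added, and further genes named were chosen after their values were seen. The members and lists were chosen with earlier results of these data known. Of the list symbols, 5 were not in the matrices. Counts and medians of lists cover all their measured genes, of which some are not reported here by name. Doublets were scored with Scrublet in scanpy 1.11.5 and not removed. Promoters came from RefSeq (GRCm38.p6), and gene positions from a GRCm38 annotation that held 664 of 665 genes looked up. Alternatives covered the thresholds of the rule, the scaling, the minimum count, the fold and thinning. Python 3.11.15, numpy 2.4.6, scipy 1.17.1, pandas 2.3.3 and matplotlib 3.10.9 were used.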

Additional observations from a re-analysis of the deposited data

How the results depend on the processing

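No paired analysis was possible because each group has 1 library, and no library could be left out. The order of the shares held under every rule tried, but their ratios moved, and the cause was not tested unless the setting itself shows it. The ratio of shares of Model to Control was 0.153 with at most 10% mitochondrial UMIs, 0.227 with Plet1 at least 1, 0.222 with Abcg1 at least 1, 0.133 with a UMI of Ear1 or Marco, 0.149 with Cd3 and Cd79a at 0 and 0.0587 with thinned barcodes. That of PD00 to Model was 2.36 with at most 10% mitochondrial UMIs, 1.88 with Abcg1 at least 1, 2.74 with Ear1 or Marco, 2.43 with Cd3 and Cd79a at 0 and 4.39 with thinned barcodes. That of PD00 to Control was 0.361, 0.364, 0.362 and 0.258 with 10% mitochondrial UMIs, Ear1 or Marco, Cd3 and Cd79a at 0 and thinned barcodes, 0.446 with at least 500 genes and 0.455 with Plet1 at least 1. After seeing the data, 2 looser rules were added. With no limit on Cd3 and Cd79a the ratios of Model to Control and PD00 to Model were 0.234 and 1.88, and with no Abcg1 threshold 0.254 and 1.66.

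Counts of genes past 2-fold moved with the rule and with the minimum count. For PD00 against Model they were 144 higher and 127 lower with Cd3 and Cd79a at 0, 151 and 120 with thinned barcodes, and 132 and 551 without the Abcg1 threshold, and 509 were lower by the mean of per-cell CPM. PD00 against Control had 490 higher with thinned barcodes. A minimum of 1 UMI, which admits genes of very few counts, gave 4658 higher in Model against Control, 573 higher and 2602 lower in PD00 against Model, and 3213 and 2266 in PD00 against Control. A minimum of 200 UMIs gave 489 higher, then 33 and 100, then 435 and 743. Members thinned to 2000 UMIs gave 400 higher, then 49 and 101, then 325 and 724. At 1.5-fold the counts were 1557 and 3242, 377 and 562, and 1418 and 2729. Among genes at least 3 times their lymphocyte CPM, added after seeing the data, they were 264 and 490, 24 and 35, and 266 and 393. Of 972 ratios of named genes under alternatives, 770 moved little, 201 moved beyond their interval and 1 changed sign, Sprr2a3 in PD00 against Model without the Abcg1 threshold, at 0.9996. Over 19 settings, alternative activation had 9 to 16 genes higher in Model and cytokines 11 to 17 lower.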

Other observations

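Matrix and eicosanoid genes of the members differed between libraries as well. Of 14 metalloproteinase and matrix genes, 5 were at least 2-fold higher and 3 lower in Model than in Control, among the higher Mmp14, a membrane-bound protease, at 1.77 CPM in Control, 50.4 in Model and 34.8 in PD00. Timp1, a protease inhibitor, stood at 1.77, 20.9 and 5.50 CPM. Of 15 eicosanoid genes, 5 were higher and 3 lower. Beside both lists, 7.2% of all genes were higher and 11.7% lower. The leukotriene enzymes Alox5 (117, 34.8 and 40.9 CPM) and Ltc4s (234, 47.5 and 82.6 CPM) were lower in Model, while the prostaglandin enzyme Ptgs1 (6.41, 67.6 and 53.0 CPM) and the prostacyclin receptor Ptgir (3.03, 78.5 and 56.2 CPM) were higher.

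Receptors for antibody and complement differed in both directions. Fcgr1, the activating high-affinity receptor, stood at 34.4, 2.32 and 2.33 CPM, and Fcgr2b, the inhibitory receptor, at 12.4, 146 and 82.2 CPM. C3ar1, the receptor of complement C3a, stood at 1.12, 29.1 and 27.1 CPM, while C5ar1 was lower in Model. Mfge8, which bridges dying cells to phagocytes, stood at 7.06, 116 and 68.0 CPM.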
